A study of Mus musculus with 6 samples.

Results

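The LIM homeobox transcription factors and their LDB cofactors were followed in sorted Müllerian duct mesenchyme of male and female mouse embryos. The set holds 8 LIM homeobox genes (Lmx1a, Lmx1b, Lhx2, Lhx6, Lhx8, Lhx9, Isl1 and Isl2) and 2 LDB genes (Ldb1 and Ldb2), taken by symbol. A row was matched for 9 of these 10 genes among the 37991 genes of the count tables, and Lhx8 was not analysed here. The set was put together after Lmx1a had been seen to differ between the sexes. The male and female levels of these genes are therefore given as a description, with fitted fold changes but without p-values. All 10 genes are accounted for: 4 had enough counts to enter the fit across genes (Lmx1a, Lhx9, Ldb1 and Ldb2), 4 had a few counts (Lmx1b, Lhx2, Lhx6 and Isl1), Isl2 had none, and Lhx8 had no matched row.

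Both groups were embryos at embryonic day 14.5 of genotype Amhr2Cre/+, R26R YFP/+ on a mixed C57BL/6J x 129/SvEv background. One group was male and the other female, with 3 libraries each. All animals, females included, therefore carried a copy of Cre at the Amhr2 locus, which encodes the receptor of anti-Müllerian hormone, and the YFP reporter marks cells with present or past Cre activity rather than a pure cell type. Each library was made from sorted YFP+ cells pooled from several embryos, so the spread between libraries is a spread between pools.

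LIM homeodomain proteins combine a pair of LIM domains, which bind partner proteins, with a homeodomain, which binds DNA. LDB proteins dimerize and bridge the LIM domains of several factors, and LIM-only (LMO) proteins, which lack a homeodomain, compete for the same LDB surface. SSBP proteins bind LDB and protect it from breakdown, and the ubiquitin ligase RLIM removes it. In the mouse urogenital system the family is best known for Lhx1, needed in the duct epithelium, and Lhx9, needed to form the gonad.

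The libraries held 22511872 to 24749859 counts in genes. All 8 markers of the duct mesenchyme, among them Amhr2, Pdgfra, Wt1 and Emx2, had counts in every library, and their summed level was 2351 to 2895 CPM (gene counts relative to the TMM-scaled library size) in male and 2145 to 2633 CPM in female libraries. Single markers of that list separated without overlap in both directions, although none passed the edgeR threshold. Pdgfra averaged 836.5 CPM in male and 397.9 CPM in female libraries, Emx2 45.2 CPM in male and 109.8 CPM in female, Hoxa10 103.5 CPM in male and 231.9 CPM in female, and Hoxa11 23.8 CPM in male and 53.2 CPM in female. Their part in the results on the members was not tested. Replicate 1 of each sex stood apart from the other libraries: 18.2% of its uniquely placed counts in male and 17.5% in female fell outside annotated genes, against 3.53% to 8.65% in the other 4 libraries. Results on the members are given with and without those 2 libraries where they matter.

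Lmx1a (ENSMUSG00000026686, chromosome 1) was the main LIM homeobox gene of this mesenchyme, and it was lower in male. LMX1A is known in mice for patterning the roof plate of the neural tube and for making midbrain dopamine neurons. Its level was 6.73, 4.05 and 4.68 CPM in male replicates 1 to 3, against 36.2, 29.1 and 35.1 CPM in female replicates 1 to 3. The groups did not overlap: the highest male library lay far below the lowest female library. The means were 5.15 ± 1.40 CPM in male and 33.4 ± 3.84 CPM in female libraries (SD, n = 3 each), resting on 369 male and 2453 female counts. The fitted log2 fold change, male over female, was −2.70 (SE 0.36), which is 6.48-fold lower in male. In bulk samples fewer cells that express the gene and less RNA per cell cannot be told apart.

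**Figure D1:**
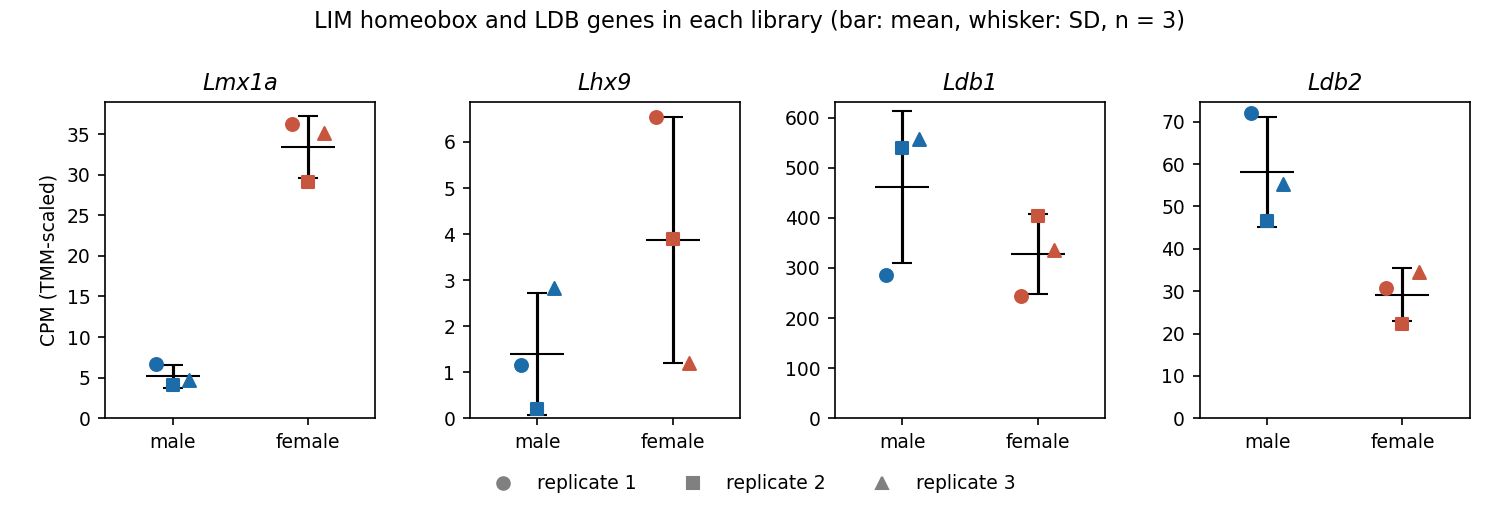
TMM-scaled CPM of Lmx1a, Lhx9, Ldb1 and Ldb2 in each library, male on the left and female on the right of each panel, with the mean and SD of 3 libraries. Male libraries lie below all female libraries for Lmx1a and above them for Ldb2, and the sexes overlap for Lhx9 and Ldb1.

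The difference in Lmx1a was similar at each replicate number. Ratios by replicate number, here and below, set libraries of the same number side by side, and the numbers are not taken as pairs. Female over male CPM was 5.38 for replicate 1, 7.17 for replicate 2 and 7.50 for replicate 3. Without both replicate 1 libraries the log2 fold change was −2.88 (SE 0.49), and over 19 alternative settings it lay between −2.94 and −2.56, negative in each. Lmx1a was among the genes that passed the threshold of an adjusted p under 0.05 in edgeR's quasi-likelihood test over all 15227 genes tested. It was the only member of the 4 tested to do so, beside 1.23% of all genes tested, 0.387% that passed as lower in male and 0.841% that passed as higher. Since the set was chosen on this contrast, nothing is read from that count. The call was lost without male replicate 2 or 3 or without female replicate 1, 2 or 3, and also without replicate 2 or replicate 3 of both sexes. In log2 fold change Lmx1a ranked 100 of 15227 from the most negative.

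The promoters of Lmx1a and Lhx9, both on chromosome 1, are shown because they are the LIM homeobox genes of the set with enough counts to be tested. They are RefSeq windows of build GRCm38.p6, from 250 bases before to 50 bases after the start site, while the deposited counts were made on mm9. Of the 10 genes, 9 had an entry in the promoter table. Capitals mark TAAT, a core that homeodomains bind, and GGGCGG, the GC box of the SP family. Each was searched on both strands (as TAAT or ATTA, and as GGGCGG or CCGCCC). The 2 motifs share no overlapping match here. The Lmx1a window (chr1:167689308-167689607, plus strand) and the Lhx9 window (chr1:138842395-138842694, minus strand) read as follows.
Lmx1a: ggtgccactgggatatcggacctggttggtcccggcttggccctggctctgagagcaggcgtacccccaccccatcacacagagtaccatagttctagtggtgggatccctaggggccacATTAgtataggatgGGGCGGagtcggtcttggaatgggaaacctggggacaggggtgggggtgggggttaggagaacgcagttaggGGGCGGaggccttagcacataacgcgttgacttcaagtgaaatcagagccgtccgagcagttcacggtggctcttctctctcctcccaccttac
Lhx9: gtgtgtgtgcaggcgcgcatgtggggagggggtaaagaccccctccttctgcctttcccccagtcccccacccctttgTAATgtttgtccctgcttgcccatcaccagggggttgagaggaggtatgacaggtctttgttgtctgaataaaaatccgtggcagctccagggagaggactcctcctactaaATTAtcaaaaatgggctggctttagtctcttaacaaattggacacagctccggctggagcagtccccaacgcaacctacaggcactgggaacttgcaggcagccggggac
The Lmx1a window held 1 match of TAAT and 2 of GGGCGG, and the Lhx9 window held 2 of TAAT and 0 of GGGCGG. Among 32851 promoter windows of this length, 58.0% held TAAT and 35.7% held GGGCGG, so both motifs are frequent. GC content was 59.3% in the Lmx1a window and 55.3% in the Lhx9 window.

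Lhx9 (ENSMUSG00000019230), which in mice is needed for the gonad to form and is expressed in the coelomic epithelium, was low and uneven. It stood at 1.15, 0.198 and 2.82 CPM in male replicates 1 to 3, against 6.54, 3.88 and 1.20 CPM in female replicates 1 to 3. The groups overlapped, since male replicate 3 was above female replicate 3. The log2 fold change of −1.47 had a wide error (SE 0.96). The female over male ratio was 5.70 for replicate 1, 19.6 for replicate 2 and 0.425 for replicate 3. These ratios rest on 30, 4 and 67 counts in male, against 178, 79 and 30 counts in female replicates 1 to 3. Without replicate 3 of both sexes the log2 fold change was −2.96 (SE 1.07), and without replicate 1 of both sexes it was −0.73 (SE 0.93).

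Markers of the tissues that Lhx9 is known from were present as well. The summed level of 9 gonadal markers was 22.6, 59.8 and 58.8 CPM in male replicates 1 to 3, against 24.0, 66.4 and 24.2 CPM in female replicates 1 to 3. Dhh, Dmrt1, Cyp11a1 and Insl3 of that list had 0 counts in at least 1 library. Dhh had 31, 98 and 126 counts in male, against 2, 2 and 0 counts in female replicates 1 to 3. Dmrt1 had 9, 4 and 6 counts in male, against 0, 3 and 1 counts in female libraries. Cyp11a1 had 2, 6 and 9 against 1, 9 and 0 counts, and Insl3 4, 0 and 0 against 0, 0 and 0 counts. Nr5a1, which encodes the steroidogenic regulator SF-1, had counts in all. Hsd3b1, a steroidogenic gene of the list, had 9, 5 and 26 counts in male, against 44, 67 and 2 counts in female replicates 1 to 3. Other genes of the list had other patterns. Foxl2 had 27, 53 and 47 counts in male, against 139, 335 and 176 counts in female replicates 1 to 3. Nr5a1 had 118, 645 and 480 counts in male, against 266, 862 and 278 counts in female replicates 1 to 3. Hsd3b1, Foxl2 and Nr5a1 were singled out after their values were seen. Amh of that list, the hormone gene of Sertoli cells, rose in the edgeR fit, with 17.2 CPM in male and 0.653 CPM in female libraries. The summed level of 6 markers of the coelomic epithelium or mesothelium was 168.0, 423.4 and 347.3 CPM in male, against 227.1, 580.8 and 401.4 CPM in female replicates 1 to 3. Lrrn4 and Upk1b of that list were lower in male without overlap, and its other genes overlapped. Lrrn4 had at most 24.3 CPM in male and at least 36.7 CPM in female libraries, and Upk1b at most 46.3 and at least 55.6 CPM. No gene of that list passed the edgeR threshold. The part of gonadal or coelomic cells in the Lhx9 counts was not tested.

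The other LIM homeobox members were at the limit of detection. Lmx1b, the closest relative of Lmx1a, which patterns the dorsal limb and maintains kidney podocytes in mice, had 1 count over the 3 male libraries and 0 over the 3 female libraries. The female 0 allows a level of up to 0.0413 CPM, taking 3 counts over the group. Isl2, known from motor neurons, had 0 counts in all 6 libraries, which allows up to 0.0428 CPM in male and 0.0413 CPM in female. These limits and the intervals that follow cover counting error only.

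Lhx2, which acts in eye, forebrain and hair follicle, had 1, 2 and 0 counts in male replicates 1 to 3, against 1, 4 and 7 counts in female replicates 1 to 3. The male over female ratio of its scaled counts was 0.259 (exact 95% interval 0.0469 to 0.959), and the libraries overlapped. Lhx6, a factor of cortical interneurons and of the jaw and teeth, had 6, 1 and 2 counts in male, against 6, 5 and 7 counts in female libraries, a ratio of 0.517 (0.205 to 1.21). That interval includes equal levels, and 104 of the exon bases of Lhx6 are shared with the annotated gene Gm27953.

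Isl1, which marks motor neurons, the second heart field and the genital tubercle mesenchyme, had 10, 2 and 0 counts in male, against 0, 0 and 2 counts in female replicates 1 to 3. The ratio was 6.21 (1.38 to 57.1), but 10 of the 12 male counts lay in male replicate 1. Markers of neurons differed in where they were highest. Snap25 had 155, 12 and 12 counts in male, against 26, 1 and 6 counts in female replicates 1 to 3. Tubb3 had 31, 73 and 56 counts in male, against 10, 35 and 18 counts in female replicates 1 to 3. Elavl4 had 130, 9 and 35 counts in male, against 132, 19 and 59 counts in female replicates 1 to 3. These 3 markers were singled out after their values were seen. The summed level of 7 neuron markers was 61.0 to 73.5 CPM in male and 14.2 to 16.8 CPM in female libraries, with Elavl3 at 0 counts in 1 library. Most of that sum was Stmn2, at 47.0 to 68.1 CPM in male and 9.59 to 11.7 CPM in female libraries, which rose in the edgeR fit. The part of neurons in the Isl1 counts was not tested.

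Ldb1 was far more abundant than any LIM homeobox gene in both sexes, and Ldb2 was so in male only, where its libraries lay above those of Lmx1a. Ldb1 (ENSMUSG00000025223), the broadly expressed bridging cofactor, stood at 285.9, 539.6 and 557.2 CPM in male, against 243.4, 402.9 and 335.1 CPM in female replicates 1 to 3. The sexes overlapped, and replicate 1 was lowest in both. The log2 fold change was 0.49 (SE 0.40), with male over female ratios of 1.17, 1.34 and 1.66 for replicates 1 to 3. Without replicate 1 of both sexes it was 0.57 (SE 0.39), and with an offset for GC content and transcript length it was 0.27 (SE 0.20). The longest Ldb1 transcript has a GC content of 57.9%, the highest of the 4 tested members, against 49.6% for Lmx1a, 45.4% for Ldb2 and 42.0% for Lhx9. A stretch of 177 of its 4606 exon bases overlaps Pprc1 on the other strand in the reference annotation, and no strand setting is given for the counts.

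Ldb2 (ENSMUSG00000039706), the second cofactor, known from brain and vascular endothelium, was higher in male in every library. It had 72.2, 46.7 and 55.4 CPM in male, against 30.7, 22.2 and 34.5 CPM in female replicates 1 to 3, without overlap. Of the 4 tested members Ldb2 and Lmx1a were the 2 without overlap, beside 13.7% of all genes tested, 7.27% with all male libraries lower and 6.47% with all male libraries higher. Nothing is read from that count. The log2 fold change was 0.99 (SE 0.34), or 1.99-fold higher in male, and the male over female ratios were 2.35, 2.10 and 1.60 for replicates 1 to 3. It lay between 0.81 and 1.15 over 19 alternative settings. Ldb2 passed the threshold in 3 of the 19, and Ldb1 in 2 of those 3. The fit with the GC content and length offset, where Ldb2 but not Ldb1 passed, called 460 genes higher and 445 lower in male. With a replicate block 1997 genes were called higher and 2167 lower, and with block and offset 2069 and 2349, of 15227 tested. Nothing is read from these calls.

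The 6 genes of the endothelium list, set beside Ldb2, summed to 141.0 to 327.6 CPM in male and 47.3 to 93.4 CPM in female libraries. Most of that was Kdr, at 133.0 to 319.0 CPM in male and 40.4 to 86.1 CPM in female libraries. Pecam1 and Cdh5, which define endothelium, had at most 1.43 and 2.52 CPM in a male library and at most 1.72 and 1.87 CPM in a female library, and Cldn5 had 0 counts in 1 library. Tek averaged 1.18 CPM in male and 0.456 CPM in female libraries and Emcn 3.52 CPM in male and 2.85 CPM in female libraries, each with overlap. None of the 5 endothelial genes tested passed in the edgeR fit. The part of endothelial cells in the Ldb2 counts was not tested.

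Within each sex the members varied with the library. Deviations of log2 CPM from the sex mean correlated at 0.904 between Lmx1a and Ldb2, at −0.914 between Lmx1a and Ldb1 and at −0.758 between Ldb1 and Ldb2 over the 6 libraries. Lhx9 showed 0.287 with Lmx1a and 0.105 with Ldb2. The libraries share their composition and the replicate 1 difference, and 797 of 14670 other named genes had a correlation above 0.95 with Lmx1a on the same measure, so these values describe the libraries as much as the genes.

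Levels were compared between genes per length, as CPM per kilobase of the longest annotated transcript. In male the order was Ldb1 at 147.1 ± 48.5, Ldb2 at 22.4 ± 4.99, Lmx1a at 1.54 ± 0.419 and Lhx9 at 0.281 ± 0.269 CPM per kilobase. In female it was Ldb1 at 104.4 ± 25.5, Ldb2 at 11.2 ± 2.42, Lmx1a at 9.99 ± 1.15 and Lhx9 at 0.785 ± 0.541 CPM per kilobase (SD, n = 3 each). Female Ldb2 and Lmx1a overlapped between libraries and could not be ordered, whereas in male all 3 Ldb2 libraries lay above all 3 Lmx1a libraries. The next in order were Isl1, Lhx6, Lhx2 and Lmx1b in male and Lhx6, Lhx2, Isl1 and Lmx1b in female, each at most 0.152 CPM per kilobase in any library. Each overlapped with its neighbours, male Lhx9 and Isl1 included, except that all female Lhx9 libraries lay above all female Lhx6 libraries. With the median length of each gene's transcripts the order of the upper 4 genes was the same in both sexes, and Lhx6 and Lhx2 exchanged places.

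**Figure D2:**
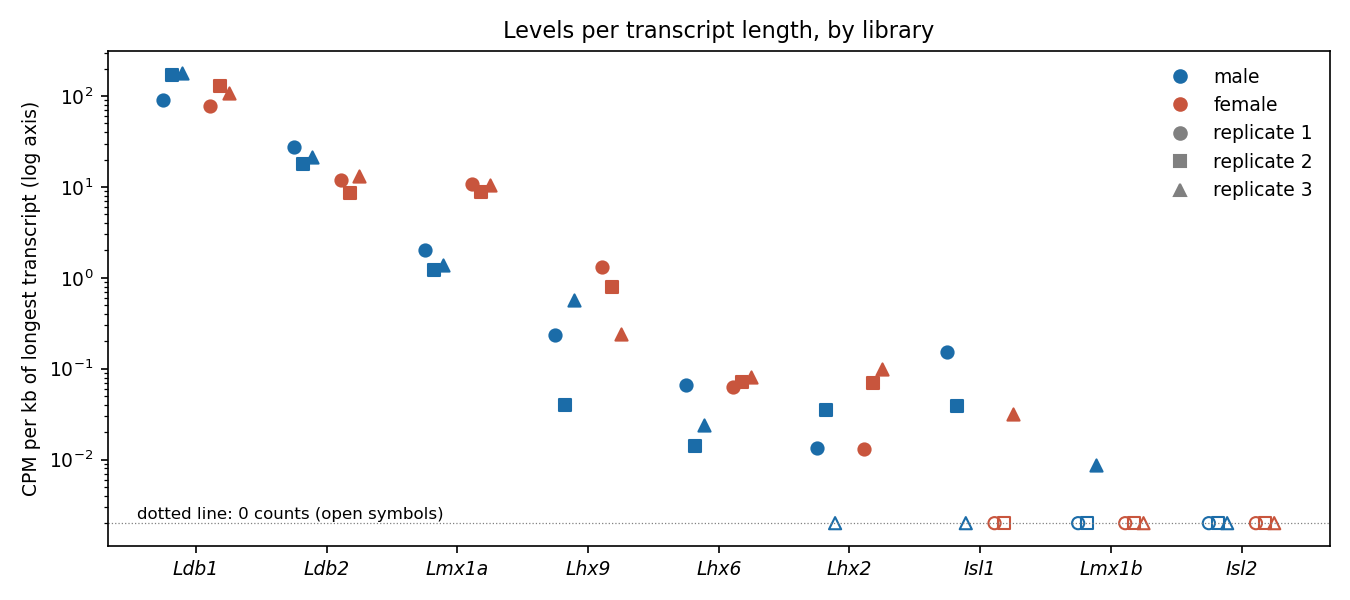
CPM per kilobase of the longest transcript (log axis) for 9 genes in each library, male left of female for each gene, with open symbols on the dotted line for 0 counts. The levels fall from Ldb1, at 77.7 to 177.9 CPM per kilobase over the 6 libraries, to Isl2 with no counts.

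The balance between LIM homeobox genes and cofactors followed from these levels. The mouse has 12 LIM homeobox genes, of which 11 had a row. Their levels summed to 2.70, 1.47 and 2.12 CPM per kilobase in male, against 12.6, 9.94 and 11.3 CPM per kilobase in female replicates 1 to 3. Lmx1a made up 65.9% to 82.2% of that sum in male and 85.6% to 92.8% in female libraries. Its share by median transcript lengths was 58.3% to 70.3% in male and 79.7% to 85.9% in female libraries. The LDB sum was 119.1, 190.2 and 199.2 CPM per kilobase in male, against 89.5, 137.2 and 120.3 in female libraries. Per unit of LDB transcript, LIM homeobox transcripts were thus 1.37% ± 0.794 in male and 10.3% ± 3.51 in female libraries (SD, n = 3 each), with no overlap. With median transcript lengths the same percentages were 1.14 ± 0.720 and 7.63 ± 2.65. These are levels of RNA, not of protein, and since Lmx1a leads the sum they are no separate evidence of its difference.

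LIM-only genes, whose products compete with LIM homeodomain proteins for LDB, summed to 37.0, 42.6 and 49.2 CPM per kilobase in male, against 24.0, 32.0 and 31.3 CPM per kilobase in female replicates 1 to 3. Lmo4, a LIM-only gene of epithelia, neural crest and brain, made up 88.2% to 94.7% of the sum in each library. Relative to the LDB sum the LIM-only genes stood at 26.1% ± 4.49 in male and 25.4% ± 1.83 in female libraries, and the libraries overlapped. LIM homeobox genes made up 4.76% ± 1.82 of the LIM homeobox and LIM-only transcripts together in male, against 28.2% ± 5.58 in female libraries. Since Lmx1a leads the LIM homeobox sum, this gap too is no separate evidence of its difference. Ldb2 took 9.45% to 23.4% of the LDB sum in male and 6.24% to 13.2% in female libraries, again overlapping.

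**Figure D3:**
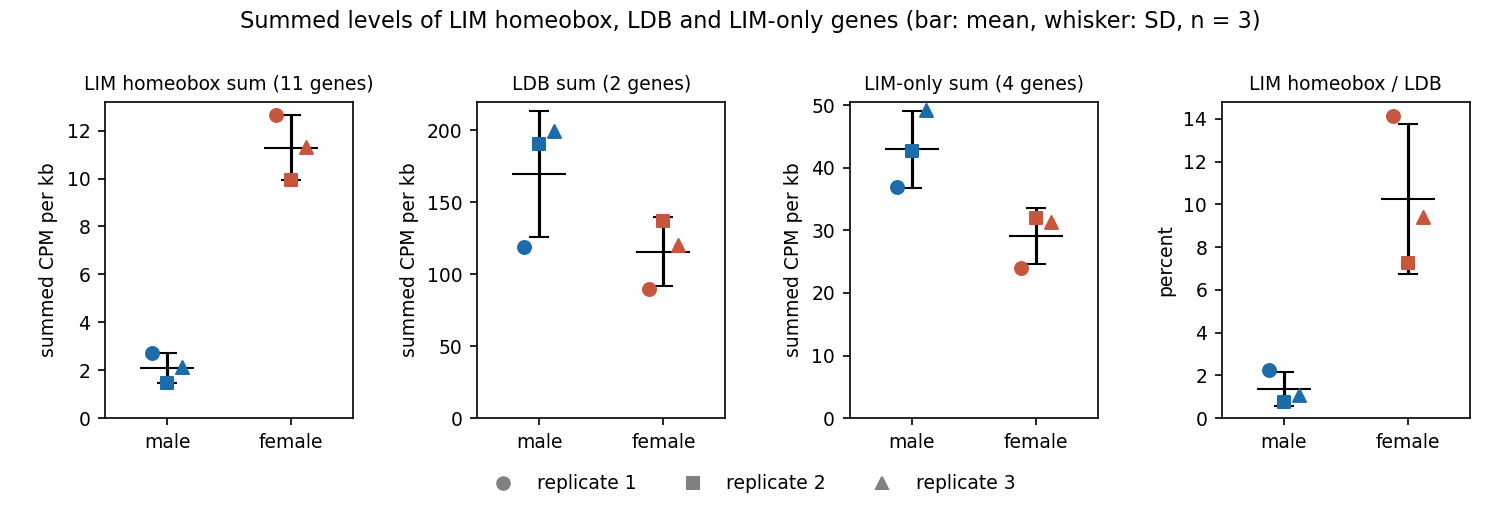
Summed CPM per kilobase of 11 LIM homeobox, 2 LDB and 4 LIM-only genes, and LIM homeobox as a percentage of LDB, in each male (left) and female (right) library, with mean and SD of 3 libraries. The LIM homeobox sum is 1.47 to 2.70 in male and 9.94 to 12.6 in female libraries, while the LDB sums of the sexes overlap.

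The other genes of the system were taken from 3 lists of 24 genes in all, of which 17 had enough counts to be tested. None passed the edgeR threshold, beside 1.23% of all genes tested. Among the remaining LIM homeobox genes, 1 of 4 was tested. This was Lhx4, a factor of pituitary and motor neurons, at 0.710 ± 0.149 CPM in male and 1.46 ± 0.0924 CPM in female libraries, and its log2 fold change was −1.03 ± 0.39 (SE; adjusted p = 0.433, edgeR). The libraries of the sexes did not overlap, but the gene did not pass. Lhx1, the duct epithelium factor, was too low to be tested, with 6, 0 and 0 counts in male, against 10, 5 and 11 counts in female replicates 1 to 3. Epcam, an epithelial gene, fell in the edgeR fit, with 2.58 CPM in male and 13.7 CPM in female libraries. The sum of all 8 duct epithelium markers overlapped, at 125.4 to 387.3 CPM in male and 169.6 to 566.9 CPM in female libraries. Most of that sum was Krt18 and Krt8. Krt18 averaged 184.0 CPM in male and 217.4 CPM in female libraries, and Krt8 85.7 and 97.1 CPM. Emx1 of that list had 0 counts in at least 1 library. The part of epithelial cells in the Lhx1 counts was not tested. Lhx3 and Lhx5 had 2 and 0 counts in all male libraries, against 0 and 3 in all female libraries.

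Of the 8 genes for LIM-only, SSBP and RLIM proteins, 7 were tested, 4 with positive and 3 with negative log2 fold changes, a median of 0.05, beside a median of −0.01 for all genes tested. Lmo3, a LIM-only gene of the nervous system, had the smallest p of the list, at 4.52 ± 0.407 CPM in male and 2.18 ± 0.582 CPM in female libraries, and its log2 fold change was 1.05 ± 0.37 (SE; adjusted p = 0.383, edgeR). Its libraries did not overlap. Lmo4 also had separate libraries, at 58.4 to 76.7 CPM in male and 37.2 to 48.6 CPM in female, and its log2 fold change was 0.59 ± 0.30 (SE; adjusted p = 0.756, edgeR). The 3 SSBP genes and Rlim had log2 fold changes between −0.17 and 0.29, each smaller than its SE, and their libraries overlapped. Rlim, which is X-linked, varied more between libraries of a sex than between the sexes, at 141.2, 30.9 and 48.4 CPM in male, against 129.5, 28.1 and 87.1 CPM in female replicates 1 to 3.

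Of 12 genes reported downstream of LIM homeodomain factors in other mouse tissues, 9 were tested, 7 with positive and 2 with negative log2 fold changes and a median of 0.47. Msx1, a homeobox gene induced by LMX1A in the midbrain, had the smallest p. It stood at 24.5, 48.8 and 56.4 CPM in male, against 2.61, 10.6 and 2.56 CPM in female replicates 1 to 3, so it was higher in male while Lmx1a was lower. The log2 fold change of Msx1 was 3.05 (SE 0.72, edgeR adjusted p = 0.135). Gdf7, a BMP-family ligand of the roof plate where LMX1A acts, had the opposite direction, at 0.574, 0.692 and 0.337 CPM in male, against 1.14, 1.67 and 2.20 CPM in female replicates 1 to 3, and its log2 fold change was −1.64 ± 0.48 (SE; adjusted p = 0.233, edgeR); it was singled out after its values were seen. At an unadjusted p under 0.05 the 3 lists held 4 of 17 tested genes, Lhx4, Lmo3, Gdf7 and Msx1, beside 1398 of all 15227 genes tested. DESeq2 called Msx1 alone as higher, limma-voom called none, and without replicate 1 of both sexes edgeR called Msx1 alone.

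**Figure D4:**
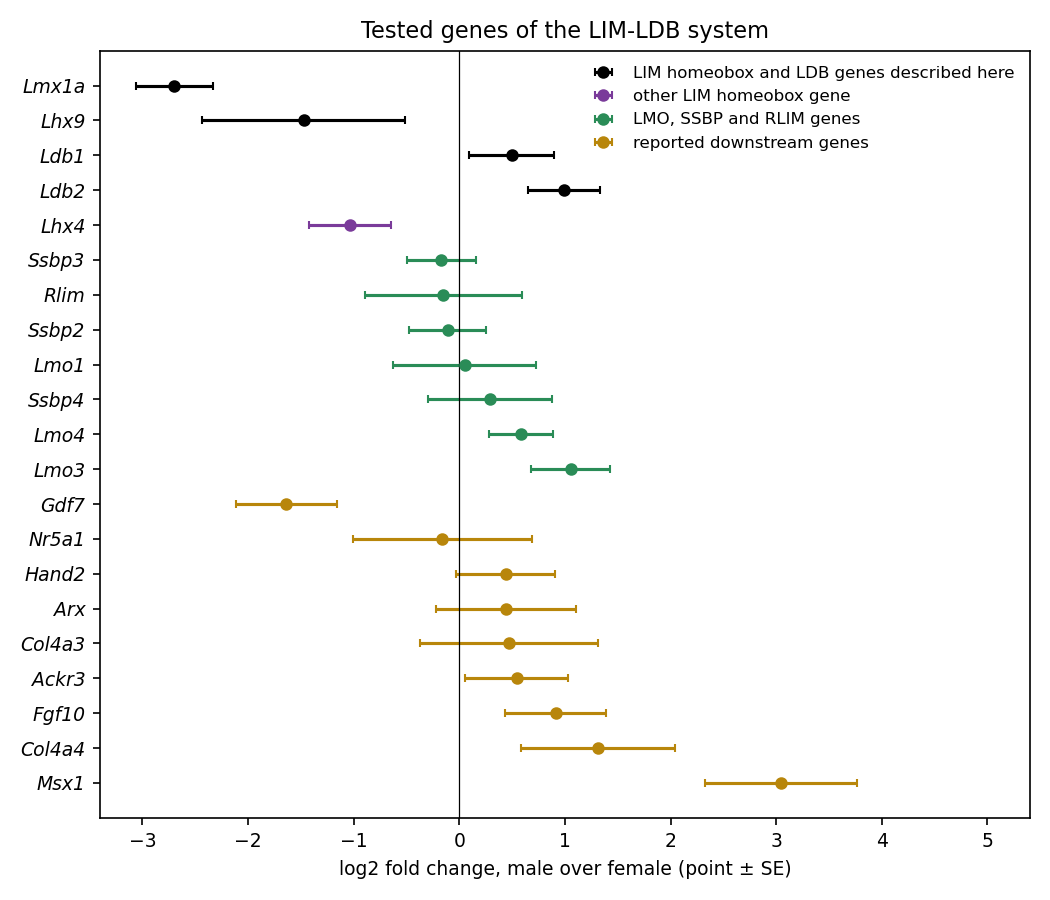
Fitted log2 fold change, male over female, with its SE for the 4 tested LIM homeobox and LDB genes and the 17 tested genes of the 3 further lists. Lmx1a lies at −2.70 and Msx1 at 3.05, at opposite ends of the plot.

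The genes whose log2 CPM over the 6 libraries was most like that of Lmx1a were Tnfrsf19, Gdpd1, Plekha7, Slc16a10 and Nek2, with Pearson correlations between 0.997 and 0.999. Tnfrsf19, a receptor of the TNF family, had 72.6 ± 9.83 CPM in male and 209.4 ± 17.97 CPM in female libraries. Slc16a10, an aromatic amino acid transporter gene, had 2.82 ± 0.891 CPM in male and 16.9 ± 1.49 CPM in female libraries. Among 14670 named genes, 205 had a correlation above 0.95. By deviations from the sex means, which leave the sex difference out, the 5 most alike were Klhdc1, Dnajc6, Ptn, Tmem255a and Dtwd2, each at 0.998 or more. Their log2 fold changes between the sexes went in both directions. Those of Klhdc1 (0.15, SE 0.43) and Dtwd2 (−0.14, SE 0.35) were smaller than their SE. Ptn, a secreted growth factor gene, stood at 784.2 ± 498.9 CPM in male and 110.5 ± 29.0 CPM in female libraries. Dnajc6, a gene of clathrin uncoating, stood at 1.37 ± 0.711 CPM in male and 2.91 ± 0.529 CPM in female libraries, in the same direction as Lmx1a. Tnfrsf19, Gdpd1, Plekha7, Slc16a10 and Nek2 were picked on a measure that holds the sex difference of Lmx1a. A sex difference in them follows from that choice, and nothing is read from it. Ptn (edgeR adjusted p = 0.0785) and Dnajc6 (edgeR adjusted p = 0.591) did not pass the edgeR threshold.

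**Figure D5:**
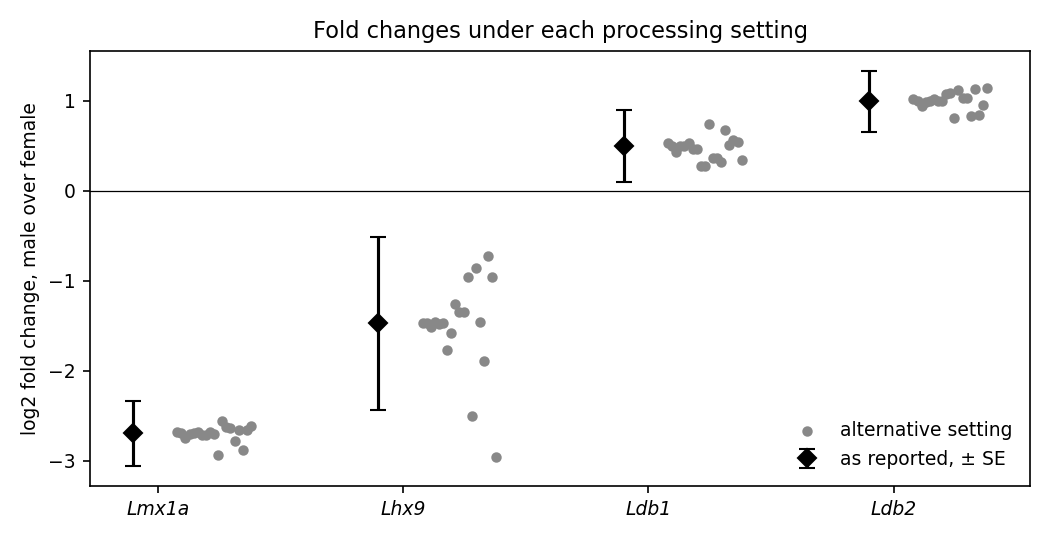
Log2 fold change, male over female, of the 4 tested members as reported (diamond, with SE) and under 19 alternative settings (dots). Lmx1a stays between −2.94 and −2.56 and Ldb2 between 0.81 and 1.15, whereas Lhx9 ranges from −2.96 to −0.73.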

How the data were processed

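The authors deposited whole-number counts for each Ensembl gene. Per the submitters' processing notes, mm9, TopHat, HTSeq and DESeq were used, but neither the part each played nor a version is recorded, and no annotation release or strand setting is given. Lines that name no gene entered neither library sizes nor tests; counts outside genes made up 3.53% to 18.2% and counts on more than 1 gene 6.51% to 10.0% of uniquely placed counts. Symbols (32919 of 37991 identifiers), transcript lengths and GC content came from a GRCm38 annotation, and promoters from RefSeq.

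From the deposited counts, edgeR 4.0.16 in R 4.3.3 kept 15227 genes (filterByExpr by sex), scaled them by TMM and ran a robust quasi-likelihood test, two-sided and with no term but sex, with Benjamini-Hochberg adjustment over all genes and a threshold of 0.05. On simulated counts this test called most genes with large changes but few with small ones, so a gene that did not pass is not shown to be equal between the sexes. The SE was derived from each log2 fold change and the F statistic of its test. Log2 CPM used a prior count of 2. Ratios of few counts have exact conditional binomial (Clopper-Pearson) intervals. Protein comparisons were planned but no protein sequences were used here. Alternatives were other scalings and filters, DESeq2 1.42.0, limma-voom (limma 3.58.1), a GC and length offset (splines, 5 degrees of freedom), a replicate block and leaving out each library; leaving out a replicate number in both sexes was added after the data were seen.

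The members and gene lists were chosen with earlier results of these data known. Named genes were the members, list genes past the threshold or else the smallest p of a list, and the 5 genes most like Lmx1a by each of 2 measures; others are said to be singled out, or are members of a list or sum that is described. The labels call the replicates biological. A marker of the neuron list is not reported here and was left out of its sum.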

Additional observations from a re-analysis of the deposited data

How the results depend on the processing

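Over 19 alternatives the log2 fold changes of Lmx1a, Lhx9, Ldb1 and Ldb2 kept their sign, and 18 or 19 values of each moved by less than the spread between libraries; Lhx9 moved further without replicate 3 of both sexes (−2.96). The number of genes called moved more. Against 128 higher and 59 lower in male, DESeq2 called 444 and 327 and the GC content and length offset 460 and 445. Leaving out 1 library gave 0 to 141 higher and 0 to 32 lower (none without male or female replicate 3), and leaving out a replicate number in both sexes 0 to 225 higher and 0 to 129 lower; where none was called, 455 to 1103 genes had an unadjusted p under 0.05. Among the LIM related genes that are not members, 0 were called higher and 0 lower; DESeq2, the offset, and leaving out replicate 1 of both sexes each called 1 higher. The causes were not tested.

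Same-numbered libraries deviated together for replicates 1 and 2 (correlations over genes 0.927 and 0.852) but not for replicate 3 (−0.0690), so the numbers are not taken as pairs. With the replicate block 1997 genes were higher and 2167 lower, and 5 LIM related genes higher and 2 lower; with the offset and the replicate block 2069, 2349, 6 and 2. Ldb1 and Ldb2 passed the threshold in both of these fits. Few counts limit Lmx1b, Lhx2, Lhx6, Isl1 and Isl2.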
